A study of Mus musculus with 6 samples.

Results

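Interferon response genes were examined in whole hearts of mouse embryos at E13.5, comparing mutants in which Wt1 was deleted in the cardiac troponin T lineage with controls. The members are 35 genes fixed by name, all of them found in the deposited table of 46983 genes and all of them expressed highly enough to be tested. They encode the type I interferon receptor, the transcription factors downstream of it, the sensors of foreign RNA and the antiviral proteins that interferon induces. Each RNA-seq library was made from a single heart of C57BL/6 x DBA/2 background, with 3 hearts labelled TnnT2Cre;Wt1flox (replicates 1, 5 and 10) and 3 labelled wild type (replicates 2, 3 and 5). The study's methods describe the controls as Tnnt2 Cre-negative embryos that carry both Wt1 floxed alleles, and the mutants as embryos that add the Tnnt2 Cre driver to the same floxed alleles, so the floxed alleles are shared by both groups. The Cre driver was in the mutants alone, and no group carried it without the floxed alleles. The presence of Cre and the loss of Wt1 therefore cannot be told apart. The driver recombines in cardiomyocytes and also in a part of the epicardium, and the RNA of the whole heart mixes these with cells in which Wt1 was left intact. In such bulk RNA, fewer cells of a type and less RNA per cell cannot be told apart.

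Type I interferons are secreted when a cell detects foreign nucleic acid. They bind a receptor made of the Ifnar1 and Ifnar2 chains, and the kinases attached to it activate STAT proteins such as Stat2, which joins Irf9 in a complex that binds the interferon-stimulated response element (ISRE) in promoters. Many of the genes switched on in this way are kept at a low tonic level in healthy tissue, and macrophages and endothelial cells are among the cells that express them.

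To show what the members share in sequence, their promoters were taken from RefSeq (GRCm38.p6) as windows of 300 bases, 250 before and 50 after the start site. Windows were found for 28 of the 35 genes (32 windows, as some genes have several), and Dhx58, Ifi27, Mx1, Mx2, Oas2, Parp14 and Usp18 had none. The ISRE core, GAAA followed by any 2 bases and GAAA again, searched on both strands, was in the windows of 14 of these 28 genes. Counted by window this was 14 of 32 (43.75%), against 3.44% of all 32851 promoter windows in the table. The palindromic GAS core TTCNNNGAA, an element bound by pairs of STAT proteins, was found in 10 of the 28 genes (31.25% of their windows, against 8.30% of all windows), and it overlapped an ISRE core in Bst2 and Ifitm3. A match is a description of letters and not a binding site. A set of 6 promoters is shown 5′ to 3′ on the gene's own strand, with every ISRE core in capitals. Isg15 had the most copies, Bst2 was the member with the highest FPKM but one, Ifit3 and Ddx58 were among the members with the smallest p below, and Irf7 and Trim25 were also among these but hold no copy in this window.
Isg15 (chr4:156200769-156201068, minus strand): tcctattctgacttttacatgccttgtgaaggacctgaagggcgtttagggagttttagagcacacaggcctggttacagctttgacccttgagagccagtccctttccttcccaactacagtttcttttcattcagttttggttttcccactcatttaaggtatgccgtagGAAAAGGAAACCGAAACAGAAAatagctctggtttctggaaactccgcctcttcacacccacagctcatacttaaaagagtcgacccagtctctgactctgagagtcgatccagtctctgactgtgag
Bst2 (chr8:71537423-71537722, minus strand): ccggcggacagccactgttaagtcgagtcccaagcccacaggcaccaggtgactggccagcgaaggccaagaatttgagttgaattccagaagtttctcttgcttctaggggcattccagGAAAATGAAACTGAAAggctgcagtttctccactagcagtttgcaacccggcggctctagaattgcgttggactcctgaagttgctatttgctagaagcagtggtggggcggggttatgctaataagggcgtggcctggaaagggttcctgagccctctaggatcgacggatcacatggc
Ifit3 (chr19:34583279-34583578, plus strand): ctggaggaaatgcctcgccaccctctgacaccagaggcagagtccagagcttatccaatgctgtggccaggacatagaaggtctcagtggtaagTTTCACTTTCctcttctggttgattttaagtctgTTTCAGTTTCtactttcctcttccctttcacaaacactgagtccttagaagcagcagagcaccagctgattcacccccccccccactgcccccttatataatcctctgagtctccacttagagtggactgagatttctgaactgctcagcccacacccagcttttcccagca
Ddx58 (chr4:40239776-40240075, minus strand): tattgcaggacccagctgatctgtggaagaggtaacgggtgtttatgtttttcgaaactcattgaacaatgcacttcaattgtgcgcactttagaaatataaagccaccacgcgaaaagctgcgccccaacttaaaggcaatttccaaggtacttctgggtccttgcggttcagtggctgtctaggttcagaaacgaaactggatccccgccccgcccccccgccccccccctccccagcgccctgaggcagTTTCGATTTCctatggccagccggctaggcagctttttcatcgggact
Irf7 (chr7:141266375-141266674, minus strand): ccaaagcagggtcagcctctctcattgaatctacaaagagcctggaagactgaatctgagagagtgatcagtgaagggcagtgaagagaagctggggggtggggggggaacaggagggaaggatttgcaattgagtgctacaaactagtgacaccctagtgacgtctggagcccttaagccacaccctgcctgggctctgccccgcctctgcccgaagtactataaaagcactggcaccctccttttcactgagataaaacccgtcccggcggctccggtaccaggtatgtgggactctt
Trim25 (chr11:88999153-88999452, plus strand): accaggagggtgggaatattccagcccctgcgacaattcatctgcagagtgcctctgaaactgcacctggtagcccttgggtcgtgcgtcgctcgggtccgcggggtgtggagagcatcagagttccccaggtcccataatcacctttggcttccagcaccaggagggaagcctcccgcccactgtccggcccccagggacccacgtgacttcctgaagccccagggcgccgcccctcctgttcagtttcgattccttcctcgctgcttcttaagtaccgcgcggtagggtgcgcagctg
With the start site counted as 0, the 3 copies in Isg15 overlap each other between −78 and −57, and the copies in Ifit3 begin at −156 and −122. The median log2 fold change of mutant over wild type, defined below, was 0.35 for the 14 genes with an ISRE core and 0.35 for the 14 genes without one.

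The hearts had between 44244665 and 56373393 counts each. The targeted gene, Wt1, had 40.0, 32.9 and 19.97 CPM in wild type and 17.7, 33.3 and 35.7 CPM in mutant replicates, so its level over the whole heart did not distinguish the groups. CPM are counts scaled to the TMM-normalized library size of each heart, listed throughout in the order wild type replicates 2, 3 and 5 and mutant replicates 1, 5 and 10. Cardiomyocyte markers identified every library as heart (summed CPM of 8 markers between 13558 and 17737). Several libraries stood apart in their content. Wild type replicate 3 held 761 CPM of hepatocyte markers against 1.24 to 20.4 in the others. Erythroid markers summed to 17072 CPM in wild type replicate 5 and 18215 CPM in mutant replicate 10, against 3327 to 5071 CPM in the others. The log2 CPM also deviated with gene length in several hearts, most in wild type replicate 5. Spearman's rho across 11795 genes, which are not independent replicates, was 0.383, 0.316 and −0.556 in wild type replicates 2, 3 and 5. In mutant replicates 1, 5 and 10 it was −0.0062, 0.464 and −0.062.

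The members spanned a wide range of levels per length, given here as the deposited FPKM averaged over the 6 hearts. Ifitm2 stood first at 216 FPKM, followed by Bst2 at 39.7 and Ifnar1 at 29.4, while Mx1 (0.105) and Oas2 (0.187) were at the bottom. A mean above 10 FPKM was found for 8 members and one under 1 FPKM for 10. The median over members was 2.33 FPKM, against 8.04 FPKM over all genes tested. The receptor chains, Bst2, Ifitm2 and Ifitm3 were thus above the median of the genes tested, while Ifitm1, at 1.36 FPKM, was below it. Of 21 interferon genes looked up as ligands, 19 had 0 counts in every heart, which allows an expected count of up to 3 in each. The others were Ifng, with 3 counts in mutant replicate 5 alone, and Ifnz, with 3 and 1 counts in mutant replicates 1 and 5.

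**Figure D1:**
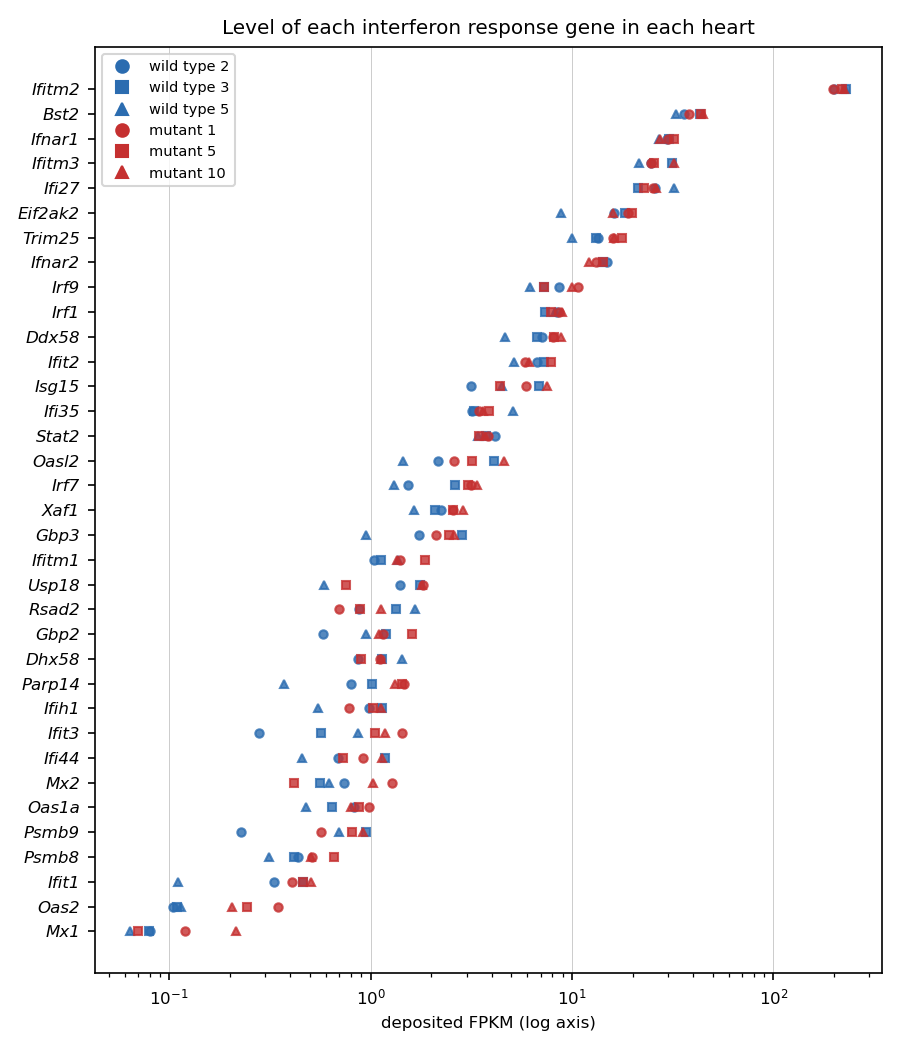
Deposited FPKM of each of the 35 members (rows, ordered by the mean over the 6 hearts) on a log axis, with 1 point per heart. Ifitm2 lies far to the right at a mean of 216 FPKM, and the triangle of wild type replicate 5 is the leftmost point of many rows.

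To ask whether the interferon response differed in the mutant hearts, the counts of 17473 genes were compared with edgeR's quasi-likelihood test. No member passed (0 of 35 with a Benjamini-Hochberg adjusted p under 0.05, smallest 0.547), and no gene at all passed in this test (0%). By unadjusted p under 0.05 there were 6 members, Trim25, Oas2, Parp14, Irf7, Ifit3 and Ddx58, all with a higher mean in the mutant, against 3.14% of all genes tested with a higher and 2.59% with a lower mean. The log2 fold change of mutant over wild type was above 0 in 28 of the 35 members, against 49.8% of all genes. Its median over the members was 0.37 (interquartile range 0.10 to 0.50), against −0.0010 over all genes (interquartile range −0.14 to 0.12). In 10 members every mutant heart had a higher CPM than every wild type heart, and in 0 members a lower one. Over all genes these shares were 6.61% and 4.59%. With library size alone as the scaling, 869 of all genes had groups apart with the mutant higher and 1006 with it lower, in place of 1155 and 802, and 8 members had groups apart, all of them higher in the mutant. DESeq2, the tool the study used, also gave 0 members an adjusted p under 0.05 (0.836% of all genes), with 7 at an unadjusted p under 0.05, all higher in the mutant. Over all genes DESeq2 gave such a p to 3.36% with a higher and 3.04% with a lower mean.

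The size of the shift depended on single hearts. Leaving out wild type replicate 5 brought the median log2 fold change of the members to 0.22, and leaving out mutant replicate 10 brought it to 0.17. When wild type replicate 3, the heart with hepatocyte markers, was left out instead, the median was 0.49. In an analysis chosen after seeing the data, DESeq2 without wild type replicate 5, 3 members passed (Ifit3, Parp14 and Trim25), against 2.66% of all genes. The 95% interval of the log2 fold change lay within a 2-fold difference in either direction for 17 of the 35 members, while for the other 18 it reached past that size. Over all genes it lay within that size for 12991 of 17473.

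**Figure D2:**
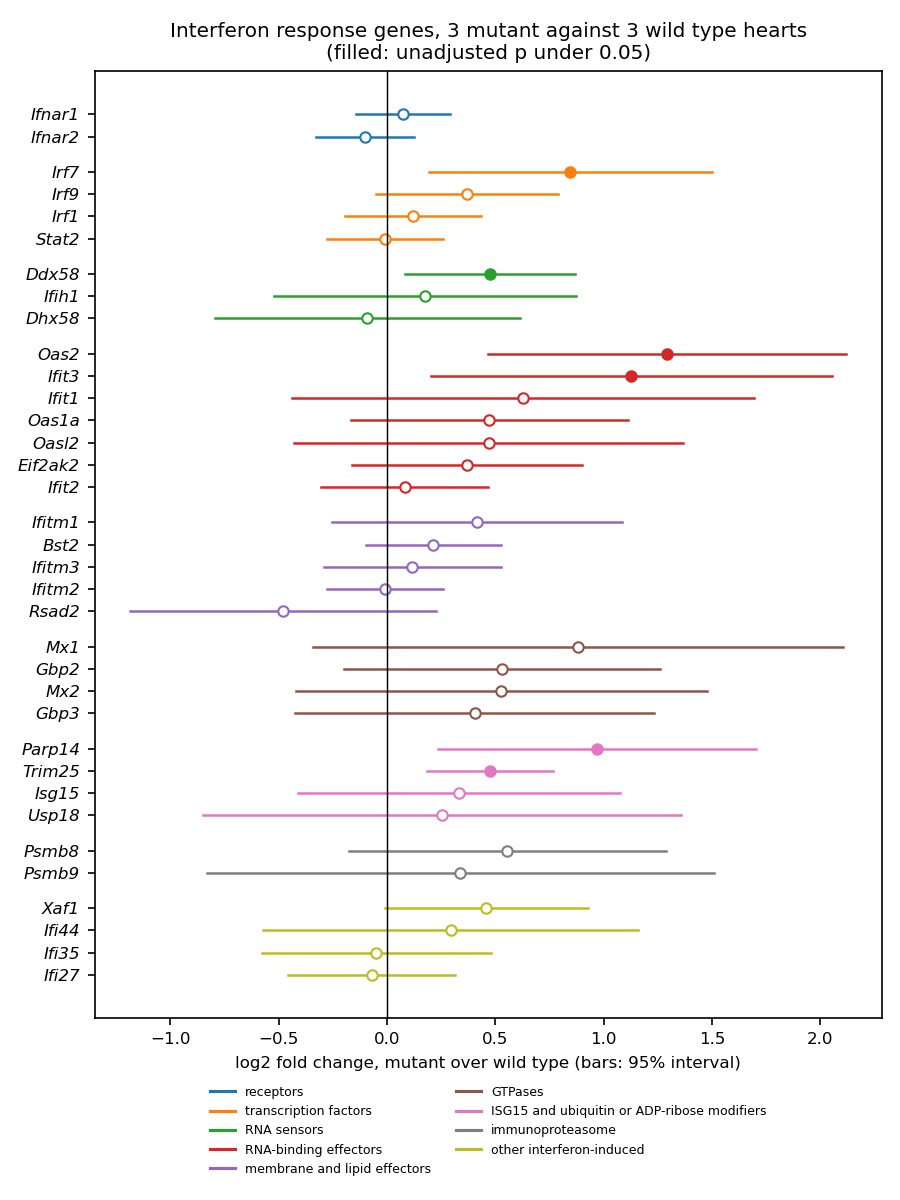
Log2 fold change of mutant over wild type for each of the 35 members, grouped by role, with the 95% interval from edgeR's quasi-likelihood fit (3 hearts per group). The points of 28 members lie to the right of 0, the 6 filled points have an unadjusted p under 0.05, and none has an adjusted p under 0.05.

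The receptor chains differed little between the groups. Ifnar1 (ENSMUSG00000022967, chromosome 16 from 91485238 to 91507441 in GENCODE M21 on GRCm38, protein-coding) had 74.1, 75.3 and 69.0 CPM in wild type and 75.1, 81.1 and 73.5 CPM in mutant hearts. Ifnar2, its neighbour on the same chromosome, had 23.3, 22.0 and 22.5 CPM and 20.4, 22.5 and 20.3 CPM. The groups overlapped for both. Their log2 fold changes were 0.07 (95% interval −0.14 to 0.29) and −0.10 (−0.33 to 0.13), which are among the narrowest intervals of the list.

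Among the transcription factors the smallest p was that of Irf7, which drives the interferon genes themselves once it is activated (ENSMUSG00000025498, chromosome 7 from 141262706 to 141266481). Irf7 had 1.70, 2.90 and 1.48 CPM in the wild type hearts and 3.501, 3.43 and 4.03 CPM in the mutants. Every mutant heart lay above the controls, with wild type replicate 3 closest to them. The means were 2.03 ± 0.767 and 3.66 ± 0.329 CPM (SD, n = 3 per group) and the log2 fold change was 0.85 (standard error 0.28, edgeR adjusted p = 0.728), or 0.66 without wild type replicate 5. Irf9, the DNA-binding part of the complex with Stat2, had 18.6, 15.5 and 13.496 CPM and 22.9, 15.7 and 22.9 CPM. The groups overlapped through mutant replicate 5, and the log2 fold change was 0.37 (standard error 0.18). Stat2 had 17.9, 16.0 and 15.04 CPM and 16.6, 15.1 and 17.1 CPM, a log2 fold change of −0.01 (95% interval −0.28 to 0.26), and Irf1, a factor shared with the response to interferon gamma, had one of 0.12 with overlapping groups.

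Of the RNA sensors, Ddx58 encodes RIG-I, which detects RNA with unprocessed ends (ENSMUSG00000040296, chromosome 4 from 40203773 to 40239828, minus strand). Its level was 11.3, 10.6 and 7.52 CPM in wild type and 12.8, 13.1 and 14.96 CPM in mutant hearts. The groups did not overlap, and wild type replicate 5 was lowest. The means were 9.81 ± 2.01 and 13.6 ± 1.16 CPM (SD, n = 3 per group), and the log2 fold change was 0.47 (standard error 0.17, edgeR adjusted p = 0.767). The related sensor Ifih1 (MDA5) had a log2 fold change of 0.18 that turned to −0.07 without wild type replicate 5. Dhx58 (LGP2), which modulates both, had one of −0.09 that turned to 0.11 without the same heart. The groups overlapped for both of these.

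The RNA-binding effectors held the largest fold changes. Oas2, one of the antiviral enzymes that make oligoadenylates on sensing double-stranded RNA (ENSMUSG00000032690, chromosome 5 from 120730333 to 120749853), had 16, 17 and 14 counts in the wild type hearts and 49, 35 and 30 counts in the mutants. In CPM these were 0.284, 0.296 and 0.318 and 0.943, 0.668 and 0.596. The wild type hearts were close together and every mutant heart was above them, although the counts are small. The log2 fold change was 1.29 (standard error 0.36, edgeR adjusted p = 0.580) and took values from 1.08 to 1.42 when single hearts were omitted.

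Ifit3, of the Ifit family of proteins that recognise foreign RNA (ENSMUSG00000074896, chromosome 19 from 34583531 to 34588731), had 0.479, 0.974 and 1.52 CPM in wild type and 2.46, 1.83 and 2.17 CPM in mutant hearts. The groups did not overlap, and here wild type replicate 5 was the highest of the controls. The log2 fold change was 1.13 (standard error 0.40, edgeR adjusted p = 0.767). It was 1.56 when wild type replicate 5 was omitted and 0.79 when wild type replicate 2 was. Its neighbours in the same gene cluster did not show this separation. Ifit1 had 0.870, 1.1998 and 0.295 CPM and 1.06, 1.22 and 1.41 CPM, with wild type replicate 5 far below the rest, and Ifit2 had 14.9, 16.1 and 11.7 CPM and 12.9, 17.7 and 14.6 CPM. The log2 fold changes were 0.63 for Ifit1 (0.25 without wild type replicate 5) and 0.08 for Ifit2 (−0.04 without that heart). Without wild type replicate 3 they were 1.06 for Ifit1 and 0.18 for Ifit2.

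Eif2ak2, which encodes the kinase PKR that shuts down translation on double-stranded RNA, was the effector of this group with the highest FPKM. It had 24.7, 27.8 and 13.9 CPM and 29.0, 30.7 and 26.3 CPM. The groups overlapped, and its log2 fold change of 0.37 was 0.12 without wild type replicate 5, the only heart under 20 CPM. It was 0.57 without wild type replicate 3. Oas1a had a log2 fold change of 0.47 with groups that did not overlap, and Oasl2 one of 0.47 with groups that did. The value for Oas1a was 0.31 without wild type replicate 5, and that for Oasl2 was 0.17 without mutant replicate 10. Oas1a reached 0.69 without wild type replicate 2, and Oasl2 reached 0.97 without wild type replicate 3.

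The membrane and lipid effectors ranged from Ifitm2, the most abundant member, to Rsad2, and their log2 fold changes from −0.48 to 0.42. Ifitm2, which with Ifitm1 and Ifitm3 restricts the entry of viruses (ENSMUSG00000060591, chromosome 7 from 140954837 to 140955987), had 124, 141 and 144 CPM in wild type and 121, 137 and 148 CPM in mutant hearts. The ranges overlapped and the log2 fold change was −0.01 (95% interval −0.28 to 0.26). The annotated gene Gm45717 covers 40.9% of the exon bases of Ifitm2 on the same strand, which makes its count uncertain. Smaller parts of other members are shared too. Gm21970 covers 9.46% of Ifnar2 on the same strand. On the opposite strand, Gm11626 covers 16.8% of Ifi35 and Gm20496 covers 14.7% of Psmb8, which matters if the counts ignored strand. Ifitm3 had 16.5, 21.0 and 14.7 CPM and 16.5, 17.2 and 22.9 CPM, a log2 fold change of 0.12 with overlapping groups that turned to −0.04 without mutant replicate 10. Without wild type replicate 3 its log2 fold change was 0.28. Ifitm1 was far lower, at 0.746, 0.800 and 0.9997 CPM and 1.0004, 1.35 and 1.03 CPM. Its groups were barely apart, with 0.9997 CPM in wild type replicate 5 against 1.0004 CPM in mutant replicate 1. The log2 fold change was 0.42 (standard error 0.29), or 0.25 without mutant replicate 5.

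Bst2, or tetherin, which holds budding virus at the cell surface, had 27.1, 32.3 and 25.1 CPM and 28.6, 33.1 and 36.2 CPM, with overlapping groups and a log2 fold change of 0.21. Rsad2, or viperin, was the member with the most negative value. It had 2.41, 3.69 and 4.68 CPM in wild type and 1.92, 2.46 and 3.34 CPM in mutant hearts. The ranges overlapped and the log2 fold change was −0.48 (standard error 0.31), or −0.25 without wild type replicate 5, which had the highest level of the 6 hearts.

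The GTPases all had a log2 fold change above 0, from 0.40 in Gbp3 to 0.88 in Mx1, and in each of the 4 genes the groups overlapped. None of the 4 intervals lay within a 2-fold difference. Single hearts moved these values in both directions. The lowest were 0.33 for Mx1 without mutant replicate 10 and 0.10 for Gbp3 without wild type replicate 5. For Mx2 the lowest was 0.24 without mutant replicate 1, and for Gbp2 it was 0.29 without wild type replicate 2. The highest were 1.19 for Mx1 and 0.87 for Mx2, both without mutant replicate 5. Without wild type replicate 3, Gbp3 reached 0.85 and Gbp2 0.78. Gbp3, a guanylate-binding protein and the GTPase with the highest FPKM, had 2.63, 4.28 and 1.45 CPM in wild type and 3.17, 3.74 and 4.19 CPM in mutant hearts. Wild type replicate 3 was the highest and wild type replicate 5 the lowest of all, so the controls spanned the mutants. Mx1, defective in most laboratory strains, had only 11, 11 and 7 counts in the wild type hearts and 15, 9 and 28 counts in the mutants. Mx2, which GENCODE M21 annotates as a polymorphic pseudogene, had a log2 fold change of 0.53 with both its highest and its lowest heart among the mutants.

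In the ubiquitin-like and ADP-ribose branch, Trim25, a ubiquitin ligase that acts on RIG-I (ENSMUSG00000000275, chromosome 11 from 88999376 to 89020293), had the smallest p of all members. It had 55.8, 54.0 and 42.4 CPM in wild type and 66.0, 74.0 and 72.0 CPM in mutant hearts. All the mutants were above all the controls, and the means were 50.7 ± 7.25 and 70.6 ± 4.18 CPM (SD, n = 3 per group). The log2 fold change was 0.48 (standard error 0.13, edgeR adjusted p = 0.547) and took values from 0.36 to 0.55 when single hearts were omitted. Parp14, which transfers ADP-ribose (ENSMUSG00000034422, chromosome 16 from 35832874 to 35871544), had 3.16, 3.999 and 1.4995 CPM and 5.77, 5.68 and 5.56 CPM. The mutants were close together, while the controls spread widely below them. The log2 fold change was 0.97 (standard error 0.32, edgeR adjusted p = 0.719), and 0.66 without wild type replicate 5, the lowest heart.

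Isg15, the ubiquitin-like protein that is the classical product of the response (ENSMUSG00000035692, chromosome 4 from 156199424 to 156200818), had 2.36, 5.08 and 3.43 CPM in wild type and 4.41, 3.30 and 5.98 CPM in mutant hearts. The groups overlapped, with wild type replicate 3 above 2 of the 3 mutants. Its log2 fold change was 0.33 (standard error 0.32), but 0.09 without mutant replicate 10 and 0.10 when wild type replicate 2 was omitted. Without wild type replicate 3 it was 0.66. Usp18, which removes Isg15 from its targets and dampens the receptor, had one of 0.25 that turned to −0.07 without wild type replicate 5. For Usp18 it was 0.57 without wild type replicate 3.

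The immunoproteasome subunits were low. Psmb8, in the major histocompatibility region of chromosome 17, had a log2 fold change of 0.56 with groups that did not overlap, and Psmb9 one of 0.34 with groups that did. Psmb9 had 0.249, 1.03 and 0.772 CPM in wild type and 0.616, 0.897 and 1.07 CPM in mutant hearts, so that wild type replicate 2 alone was low, and without it the value was −0.06. Without wild type replicate 3 the value for Psmb9 was 0.78. Among the remaining members, Ifi27 was the most abundant, at 18.6, 15.2 and 23.5 CPM and 18.0, 16.5 and 20.03 CPM. Its log2 fold change was −0.07 and that of Ifi35 was −0.05, both with overlapping groups. Both turned positive without wild type replicate 5, to 0.10 for Ifi27 and 0.22 for Ifi35. Ifi27 had −0.21 without wild type replicate 3, and Ifi35 had −0.17 without wild type replicate 2. Xaf1, an antagonist of the apoptosis inhibitor XIAP, had 3.05, 2.83 and 2.27 CPM in wild type and 3.48, 3.53 and 4.21 CPM in mutant hearts. The mutants were above the controls, with a log2 fold change of 0.46 (95% interval −0.01 to 0.93), while Ifi44 overlapped at 0.29 (0.03 without wild type replicate 5, 0.72 without wild type replicate 3).

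**Figure D3:**
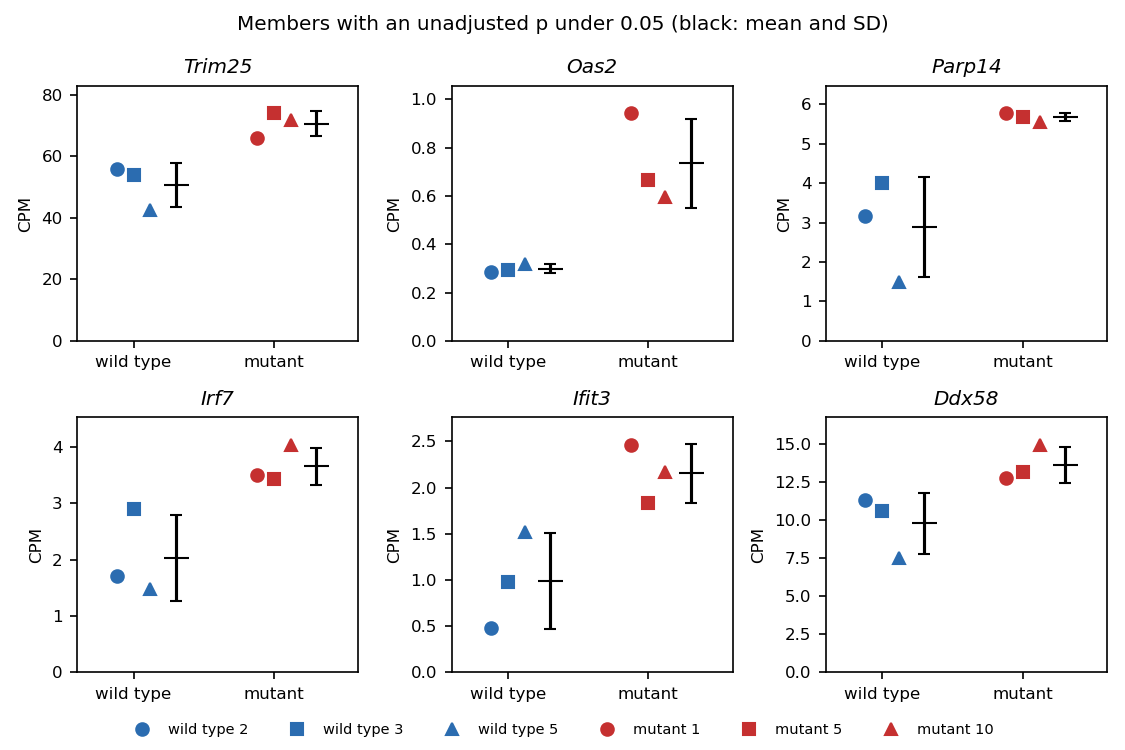
CPM in each heart for the 6 members with an unadjusted p under 0.05 (points: 3 wild type hearts in blue and 3 mutant hearts in red, black: mean and SD, axes from 0). The mutant points lie above the wild type points in every panel.

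The rest of the pathway was followed in a list of 139 further genes, of which 111 were tested. None passed edgeR's quasi-likelihood test after adjustment (0 of 111, smallest adjusted p 0.276). By unadjusted p under 0.05 there were 17, all with a higher mean in the mutant, to be read against the 3.14% and 2.59% of all genes given above. The log2 fold change was above 0 in 92 of the 111 genes, against 49.8% of all genes, with a median of 0.21. The groups did not overlap in 29 with the mutant higher and in Aim2 with it lower, against 6.61% and 4.59% of all genes. With library size alone as the scaling, 26 were apart with the mutant higher and 3 with it lower, against 869 and 1006 of all genes.

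The smallest p in the wider list belonged to Samd9l, an interferon-induced repressor of growth. It had 4.65, 4.26 and 3.999 CPM in wild type and 7.14, 7.29 and 7.21 CPM in mutant hearts, tight in both groups, with a log2 fold change of 0.74 (standard error 0.14, edgeR adjusted p = 0.276). Stat3, which carries cytokine signals such as that of interleukin 6, had 79.4, 74.4 and 57.3 CPM and 99.3, 120 and 107 CPM. Its log2 fold change was 0.63 (standard error 0.14, edgeR adjusted p = 0.395). Gbp9 had 10.7, 10.8 and 9.50 CPM and 15.2, 14.2 and 14.2 CPM, with 0.49 as its log2 fold change (standard error 0.11, edgeR adjusted p = 0.405). The groups were apart in all 3 genes, and these 3 alone of the wider list passed in DESeq2, with adjusted p of 9.74e-04, 0.0211 and 0.0319. Across the alternatives the adjusted p ran from 9.74e-04 to 0.9999 for Samd9l, from 5.57e-04 to 0.9999 for Stat3 and from 0.0298 to 0.9999 for Gbp9.

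Further genes with an unadjusted p under 0.05 had log2 fold changes between 0.35 and 0.87. Among the induced genes, Slfn2 had one of 0.82, Trim30a 0.78, Ifi47 0.87, Irgm2 0.69 and Dtx3l 0.61, where Dtx3l and its partner Parp9 (0.35) share exon bases on opposite strands. Lgals9 (0.51), Irgm1 (0.43), Gbp4 (0.36) and Parp10 (0.39) followed. The DNA sensor Ifi204 had one of 0.66, and Ifnlr1, the receptor chain of lambda interferons, one of 0.64. Irgm2 was the only one of these in which the groups overlapped. Of 11 genes of class I antigen presentation 10 had a log2 fold change above 0, against 49.8% of all genes. None of the 11 had an unadjusted p under 0.05 in edgeR, nor did any of the 7 genes listed as brakes. Over all genes the shares were 3.14% higher and 2.59% lower, so lists this short would be likely to hold few or none. The groups were apart in 1 of the 7 brakes, with the mutant higher, against 6.61% of all genes.

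Read heart by heart, the members were lowest in wild type replicate 5 and highest in mutant replicate 10. The median deviation of a member's log2 CPM from its own mean over the 6 hearts was −0.11, 0.04 and −0.32 in wild type replicates 2, 3 and 5 and 0.10, 0.15 and 0.33 in mutant replicates 1, 5 and 10. Wild type replicate 5 was the lowest of the 6 hearts for 21 members (60.0%), against 31.1% of all genes tested, and mutant replicate 10 was the highest for 15 members (42.9%), against 14.9%. With the trend of each heart with gene length removed, wild type replicate 5 was the lowest for 20 members, against 4604 of all 17473 genes. Its median deviation over the members was then −0.36. This heart was not low for every member, and Ifit3, Oas2, Ifitm1, Ifitm2, Rsad2, Ifi27, Ifi35 and Dhx58 were higher there than in the other controls.

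**Figure D4:**
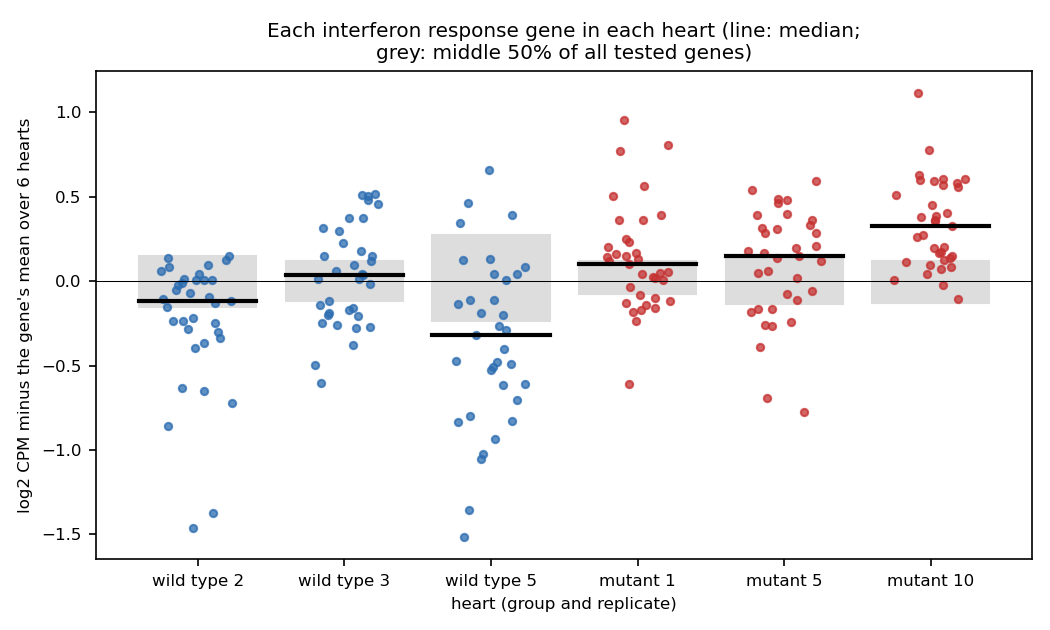
Deviation of each of the 35 members from its own mean log2 CPM, with 1 column per heart (points: members, black line: their median, grey box: interquartile range of the 17473 genes tested). The medians run from −0.32 in wild type replicate 5 to 0.33 in mutant replicate 10, and wild type replicate 3 at 0.04 lies between the other controls and the mutants.

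Most macrophage markers also had a higher mean in the mutant hearts. The CPM of 12 macrophage markers summed to 106, 122 and 133 in wild type replicates 2, 3 and 5 and to 167, 176 and 186 in mutant replicates 1, 5 and 10. The groups did not overlap in this sum. Of the 12 markers, all tested and none at the detection limit, 11 had a log2 fold change above 0, against 49.8% of all genes. By unadjusted p under 0.05 in edgeR there were 9, all higher in the mutant, against 3.14% of all genes higher and 2.59% lower. None passed edgeR's quasi-likelihood test after Benjamini-Hochberg adjustment with all hearts, as for all genes (0%). In DESeq2, C1qa and C1qb passed (adjusted p = 3.89e-04 and 0.00492), against 0.836% of all genes. In edgeR without wild type replicate 5, C1qa, C1qb and C1qc did (adjusted p = 0.0241, 0.0423 and 0.0317), against 44 of all 17814 genes. C1qa, a complement chain made by resident macrophages, had a log2 fold change of 0.98 and Adgre1, which encodes F4/80, one of 0.73. Mrc1 had one of −0.19. The endothelial markers summed to between 949 and 1313 CPM in wild type and between 1173 and 1446 CPM in mutant hearts, and the platelet markers to between 20.8 and 31.7 CPM and between 33.9 and 48.6 CPM. Of the lymphocyte and plasmacytoid dendritic cell markers, Cd3e and Ncr1 were at 0 counts in every heart, and Cd79a and Siglech reached at most 11 and 16 counts. Ptprc, which marks leukocytes in general and was the only one of this list tested, had 3.001, 2.61 and 1.68 CPM in wild type and 3.12, 4.03 and 3.93 CPM in mutant hearts. Its groups did not overlap, and the log2 fold change was 0.60 (standard error 0.26, edgeR adjusted p = 0.866). The part of any of these cells in the levels of the interferon response genes was not tested.

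**Figure D5:**
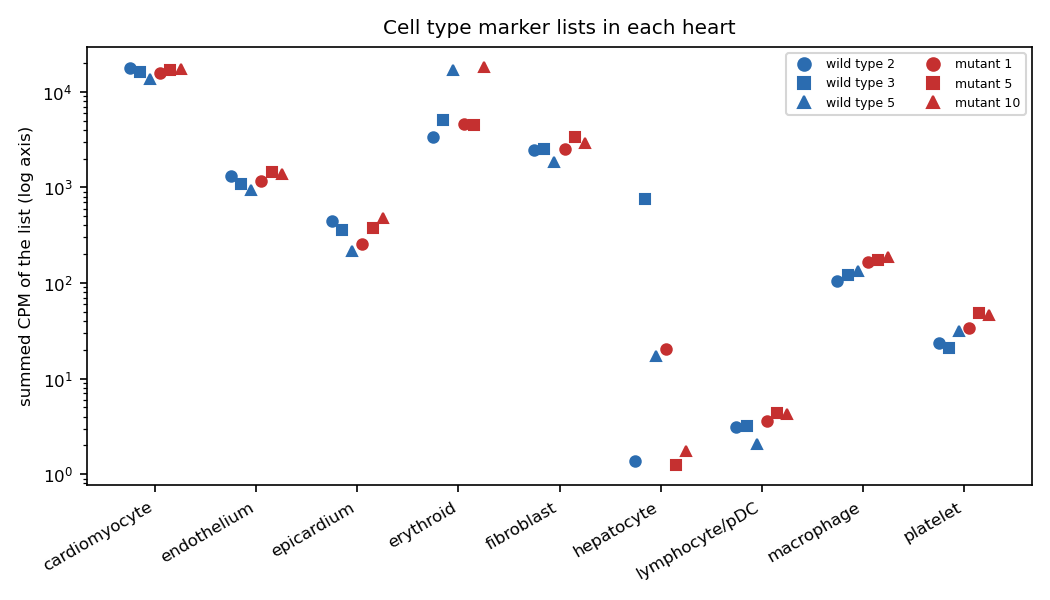
Summed CPM of each list of cell type markers in each heart, on a log axis. The macrophage and platelet sums of the 3 mutant hearts (red) lie above those of the 3 wild type hearts (blue), wild type replicate 3 stands apart for hepatocyte markers (761 CPM), and wild type replicate 5 and mutant replicate 10 stand apart for erythroid markers.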

How the data were processed

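RNA was sequenced from 6 single hearts, 3 per group. As the paper's methods describe, the authors aligned trimmed reads to mm10 with STAR and assigned uniquely mapped reads to genes with featureCounts and annotation M19, while the submitters' processing notes name HTSeq and DESeq2. The strand setting is not given in the sources used here. The deposited values are raw counts per gene in each heart, and FPKM values that equal the count divided by a fixed gene length and by the heart's total count. Nothing says that the hearts came from separate litters.

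The counts were compared with edgeR 4.0.16 in R 4.3.3 (TMM normalization, filterByExpr at its minimum count 10 and minimum total 15, glmQLFit and glmQLFTest, two-sided, no covariates), with Benjamini-Hochberg adjustment over all 17473 genes tested and a threshold of 0.05. The standard error is the log2 fold change divided by the square root of F, and 95% intervals use the fit's degrees of freedom. DESeq2 1.42.0 and limma 3.58.1 (voom, and log2 of FPKM plus 1 or 0.1) were alternatives, beside other scalings and filters, a robust fit, a lowess correction for gene length (span 0.5) and each heart left out. The edgeR fit, DESeq2, limma, the robust fit, the length correction and DESeq2's size factors in edgeR were run on simulated data. The simulated data held no trend with gene length. Library size alone, the other filters and the fits without a heart were not run on them. DESeq2 without wild type replicate 5 was added after seeing the data. The members and gene lists were chosen with earlier results of these data known.

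Values in every heart are given for Wt1, members with an unadjusted p under 0.05, the member with the highest FPKM in each role, and Ifnar1, Ifnar2, Stat2, Irf9, Isg15 and Ifitm1 to Ifitm3. In the wider list, genes with an unadjusted p under 0.05 are named with their log2 fold changes, except for some genes that are not reported here. Other genes given heart by heart were chosen after their values were seen. Positions are from GENCODE M21. A count of 0 allows up to 3 counts, and intervals on such counts cover counting error only.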

Additional observations from a re-analysis of the deposited data

How the results depend on the processing

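Of 17 alternatives, 16 gave 0 members an adjusted p under 0.05, as the main comparison did. DESeq2 without wild type replicate 5, chosen after seeing the data, gave 3 (Ifit3, Parp14 and Trim25, with adjusted p of 0.00788, 0.0454 and 0.00870, where over all alternatives these genes reached at most 0.9999), among 2.66% of all genes. Over the 6 fits that each left out a heart, the number of members with an unadjusted p under 0.05 ranged from 3 (without mutant replicate 10, with 619 of all 17975 genes) to 9 (without wild type replicate 3, with 902 of 17870). The number whose groups did not overlap ranged from 11 to 17, while over all genes it rose from 1957 with all hearts to between 2941 and 5368, as fewer hearts are compared. The median log2 fold change of the members ranged from 0.17 to 0.49. The number of genes in the wider list with an unadjusted p under 0.05 ranged from 10 (without mutant replicate 10) to 24 (without wild type replicate 5, with 2179 of all 17814 genes). The median of the members was 0.17 on log2(FPKM + 1), which compresses low values, and 0.21 with DESeq2 without wild type replicate 5. The sign held in every alternative that tested the gene for 25 members, the 6 with an unadjusted p under 0.05 among them. It turned in at least 1 for 10. The filter of CPM over 1 in at least 3 hearts tested only 30 members, and Oas2 was not among them. Over all genes, the number with an adjusted p under 0.05 was 0 in the main comparison, 146 with DESeq2, 34 without a filter on low counts, 6 with the length trend removed and 44 without wild type replicate 5. No paired analysis was possible because the labels record no pairing of the hearts. Members such as Mx1 and Oas2, with at most 28 and 49 counts in any heart, are limited by depth.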

Other observations

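Close copies of the members did not all follow them. Ifit3b, which is nearly identical to Ifit3 and could share reads with it, had 0.408, 0.713 and 0.341 CPM in wild type and 0.404, 0.343 and 1.07 CPM in mutant hearts, so that its groups overlapped where those of Ifit3 did not. Its log2 fold change of 0.30 turned to −0.39 without mutant replicate 10. Oas1g, the closest copy of Oas1a, had a log2 fold change of 0.41 with overlapping groups, and Oas3, next to Oas2 in the family, had one of 0.12 at 0.657, 0.626 and 0.409 CPM and 0.577, 0.572 and 0.695 CPM. Oasl1 had 0.355, 0.435 and 0.204 CPM in wild type and 0.750, 0.706 and 0.397 CPM in mutant hearts, with a log2 fold change of 0.88 (standard error 0.44). These genes were chosen after their values were seen.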
